A study of Mus musculus with 25 samples.

Results

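The 4 lists of H3K79me2 ChIP peaks of the series, 2 from Dot1L knockout (KO) and 2 from wild-type (WT) mouse embryonic stem cells (mESCs), are described here, taken whole. They hold 130946 of the 158590 peaks in the 8 ChIP peak lists of the series, the remaining 27644 being H3K79me3 peaks. WT replicates 1 and 2 contributed 66834 and 64084 peaks, and KO replicates 1 and 2 contributed 16 and 12. All 4 libraries came from untreated mESCs of the v6.5 strain and were precipitated with the Abcam antibody ab3594. The genotype was the only labelled difference between the groups. The labels used here do not say how the knockout was made, whether it was 1 clone, or whether replicates were separate cultures. RNA of 3 WT and 2 KO mESC libraries served as a second readout.

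Dot1L is the methyltransferase that adds methyl groups to lysine 79 of histone H3, a residue in the globular core of the nucleosome. It works with AF10 (Mllt10) and AF9 or ENL (Mllt3, Mllt1) proteins that also bind elongation factors, and its activity is raised by ubiquitination of histone H2B. H3K79 dimethylation is known as a mark of the transcribed bodies of active genes, mainly behind the start site.

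The promoters of genes that stand at the extremes of these lists are shown first, to set the peaks beside the start sites. Each sequence is RefSeq GRCm38.p6, from 250 bases before to 50 bases after the annotated start, read 5′ to 3′ on the gene's strand, with every CpG in capitals. Srsf3, Ptbp1, Rbm14 and Hnrnpf lie under 4 of the 5 most enriched WT regions, Sos2 holds a peak in both KO lists, and H4c4 has high RNA and no WT peak. H4c4 was chosen for printing after its values were seen.
Srsf3 (chr17:29032410-29032709, + strand): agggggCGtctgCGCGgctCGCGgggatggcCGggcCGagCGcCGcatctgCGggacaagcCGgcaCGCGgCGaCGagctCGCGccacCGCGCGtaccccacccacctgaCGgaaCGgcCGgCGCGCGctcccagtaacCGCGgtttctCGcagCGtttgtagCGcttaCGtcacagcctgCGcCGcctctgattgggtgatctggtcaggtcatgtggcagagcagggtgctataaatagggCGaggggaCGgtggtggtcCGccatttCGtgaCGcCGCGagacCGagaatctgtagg
Ptbp1 (chr10:79854182-79854481, + strand): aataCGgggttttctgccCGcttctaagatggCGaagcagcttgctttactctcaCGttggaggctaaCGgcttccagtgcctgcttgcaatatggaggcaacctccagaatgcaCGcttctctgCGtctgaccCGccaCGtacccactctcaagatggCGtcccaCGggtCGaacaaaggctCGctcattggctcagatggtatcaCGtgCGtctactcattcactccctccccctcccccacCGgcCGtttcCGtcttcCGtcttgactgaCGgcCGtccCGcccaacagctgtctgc
Rbm14 (chr19:4811585-4811884, - strand): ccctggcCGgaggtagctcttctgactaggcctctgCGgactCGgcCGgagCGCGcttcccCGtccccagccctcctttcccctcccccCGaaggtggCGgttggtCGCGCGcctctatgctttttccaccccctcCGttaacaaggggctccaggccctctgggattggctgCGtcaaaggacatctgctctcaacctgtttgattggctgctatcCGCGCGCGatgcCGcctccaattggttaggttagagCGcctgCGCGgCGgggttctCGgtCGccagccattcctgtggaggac
Hnrnpf (chr6:117900090-117900389, + strand): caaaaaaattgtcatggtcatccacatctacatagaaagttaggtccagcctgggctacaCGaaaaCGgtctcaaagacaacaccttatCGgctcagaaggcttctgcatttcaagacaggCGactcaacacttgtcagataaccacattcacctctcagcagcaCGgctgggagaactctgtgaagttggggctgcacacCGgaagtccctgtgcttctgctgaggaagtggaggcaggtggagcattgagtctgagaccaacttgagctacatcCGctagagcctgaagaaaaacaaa
Sos2 (chr12:69681803-69682102, - strand): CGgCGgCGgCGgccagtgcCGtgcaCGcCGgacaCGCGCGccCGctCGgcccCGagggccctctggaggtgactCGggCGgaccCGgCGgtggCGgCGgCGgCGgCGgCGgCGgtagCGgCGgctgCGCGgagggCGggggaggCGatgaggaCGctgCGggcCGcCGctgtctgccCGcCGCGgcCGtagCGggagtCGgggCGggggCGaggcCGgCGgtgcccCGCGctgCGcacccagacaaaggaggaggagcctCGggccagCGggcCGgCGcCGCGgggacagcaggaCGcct
H4c4 (chr13:23581318-23581617, + strand): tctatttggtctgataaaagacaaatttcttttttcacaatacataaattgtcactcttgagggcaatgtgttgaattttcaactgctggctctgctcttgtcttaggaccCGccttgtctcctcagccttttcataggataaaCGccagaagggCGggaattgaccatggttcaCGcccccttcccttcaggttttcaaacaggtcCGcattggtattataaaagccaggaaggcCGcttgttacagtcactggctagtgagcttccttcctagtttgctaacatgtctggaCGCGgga

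These 6 windows held 42, 22, 25, 7, 54 and 8 CpGs in that order. None of their bases was inside a WT H3K79me2 peak of either library. This does not hold for every gene under those regions, since all 300 promoter bases of 4933440N22Rik, not printed, lay inside peaks of both WT lists. Downstream of the start, the nearest WT peak began 77 and 148 bp away at Srsf3 (replicates 1 and 2), 626 and 465 bp at Ptbp1, and 269 and 187 bp at Rbm14. At Hnrnpf it began 2183 and 673 bp away, and at Sos2 5070 and 11357 bp. These Hnrnpf peaks lay before the most enriched region, which begins further downstream, at 117906810, while the printed start is at 117900340. For H4c4, a histone H4 gene, the nearest WT peak of replicate 1 on either side was 157811 bp away. The letters TATAAA, searched on both strands, occurred 1 time each in the Srsf3 and H4c4 windows and not in the other 4.

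The knockout lists were nearly empty. The WT lists covered 72.5 and 67.2 Mb, and the KO lists covered 4.10 and 3.10 kb. The mean was 65459 ± 1945 (SD, n = 2) peaks in WT and 14.0 ± 2.83 (SD, n = 2) in KO, and the groups did not overlap. With 2 lists against 2 the smallest exact two-sided permutation p is 0.333, so no test was made. The number of reads behind each list is unknown, since a peak list holds none, and a list's size also moves with depth. Of the WT peaks, 47.1 and 45.7% had a −log10 q of at least 5. The KO lists held 8 and 7 peaks at that level.

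The KO peaks were short, but the median enrichment of those called was not below that of called WT peaks. Enrichment is the fold over the local background that the authors' peak caller gave each peak. The median peak length was 498 and 503 bp in WT, against 223.5 and 206 bp in KO. Of the KO peaks, 9 of 16 and 9 of 12 were shorter than the shortest WT peak, of 230 bp. The longest peak measured 54285 and 69515 bp in the WT lists and 628 and 557 bp in the KO lists. Median enrichment was 3.78 and 3.75 in WT and 3.81 and 4.61 in KO. The lower quartile was 3.24 and 3.25 in WT and 2.37 and 4.13 in KO. Only peaks that passed the caller's threshold enter these values, so they do not compare the signal of the genotypes. In the upper range the lists separated, with maxima of 20.6 and 20.4 in WT and 7.05 and 7.63 in KO. The highest −log10 q was 96.1 and 99.5 in WT and 16.0 and 25.6 in KO.

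**Figure D1:**
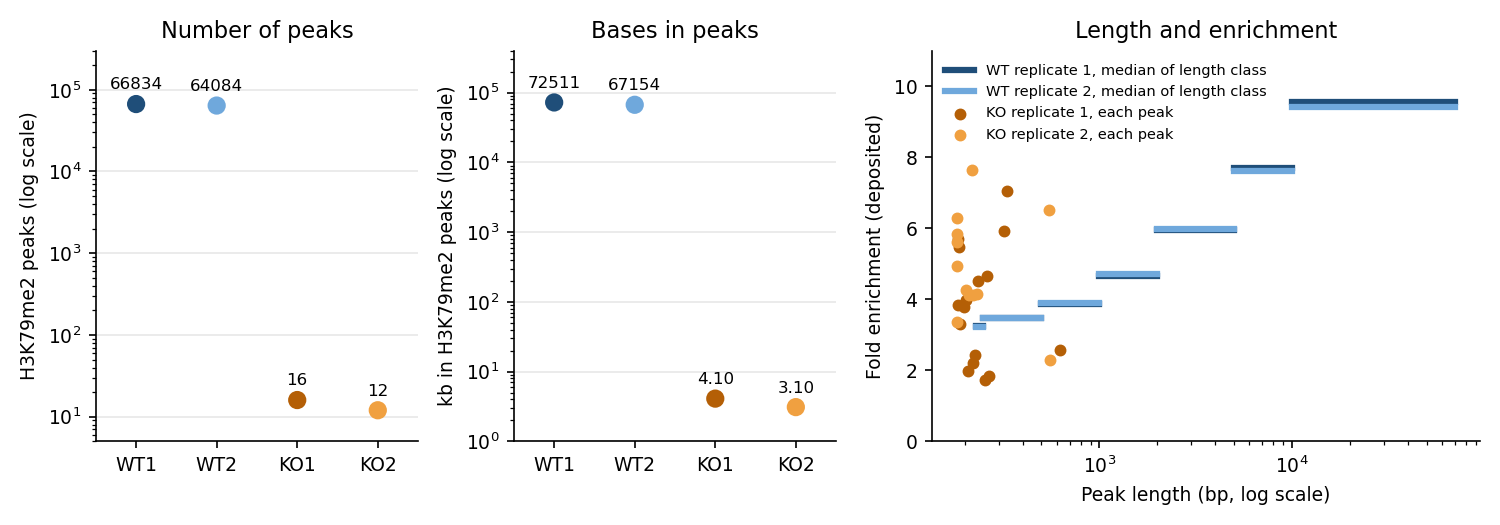
Number of H3K79me2 peaks and kb in peaks for each library (log axes), and fold enrichment against peak length (log axis), with horizontal bars for the median enrichment of each WT length class and a point for each KO peak. The KO lists hold 16 and 12 peaks, the longest of 628 bp, while WT classes reach medians of 9.57 and 9.42 above 10000 bp.

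WT peaks ranged from narrow islands to long domains, and the long ones were the most enriched. Peaks of at most 500 bp were the most numerous, with 6038 and 5182 up to 250 bp and 27561 and 26691 from 250 to 500 bp. Peaks over 10000 bp numbered 608 and 473. They made up 0.91 and 0.738% of the peaks but 13.2 and 10.9% of the bases, with a median enrichment of 9.57 and 9.42. Peaks up to 250 bp had a median enrichment of 3.24 and 3.22. Across peaks within a list, Spearman's rho between length and enrichment was 0.64 (n = 66834) and 0.62 (n = 64084), a description over peaks that share a library and are not independent. Peaks were clustered. The median gap to the next peak was 577 and 592 bp, and 62.7 and 62.0% of the gaps were at most 1 kb.

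The share of WT peaks found again in the other WT list rose with peak length and with enrichment. Of peaks up to 250 bp, 36.6% of replicate 1 and 47.3% of replicate 2 overlapped a peak of the other list by at least 1 bp. From 500 to 1000 bp the shares were 80.9 and 88.5%, and above 10000 bp 100% in both lists. A longer peak meets another by position more easily. By bases, which does not give length that advantage, 28.7 and 37.6% of the sequence in peaks up to 250 bp was also in the other list, against 97.4 and 98.8% above 10000 bp. By enrichment, split at the quartiles, the share of peaks rose from 48.3% in the lowest class of replicate 1 to 96.8% in the highest, and from 60.4 to 98.2% in replicate 2. Median length rose over the same classes, from 337 to 1646 bp and from 345 to 1560 bp. The part of length in the trend with enrichment was not tested. The peaks of both lists merged into 70667 regions. Of these, 35907 held peaks of both lists, spanned 72.38 Mb and are called shared regions below. The sequence common to both lists came to 54.4 Mb, or 75.0% of replicate 1 and 81.0% of replicate 2. The highest enrichment in a shared region differed by at most 1.5-fold between the replicates in 91.4% of the regions, with a median ratio of replicate 2 to replicate 1 of 0.979.

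**Figure D2:**
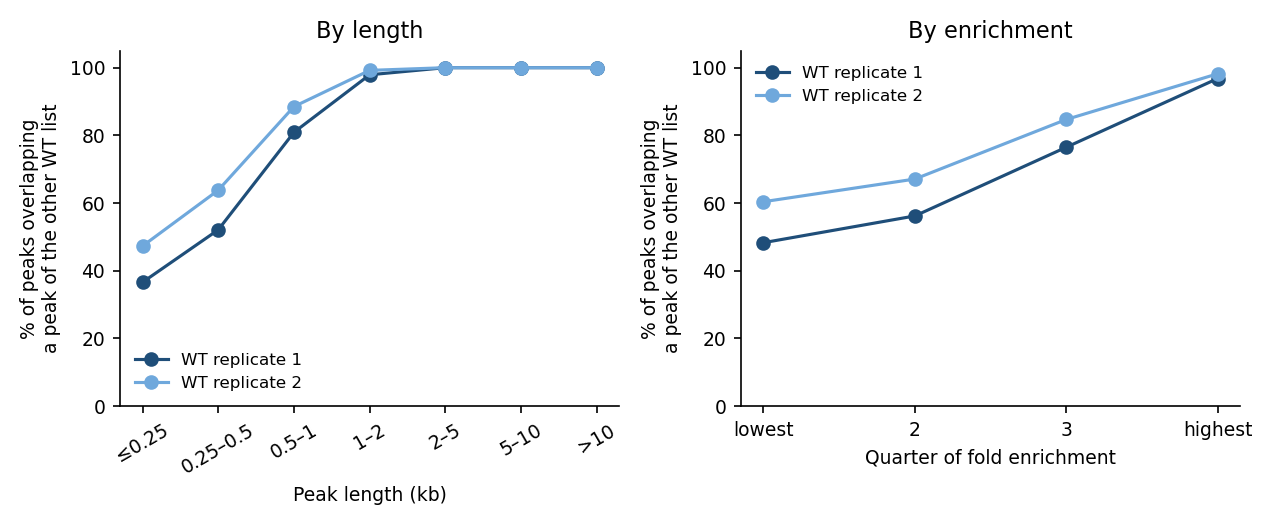
Percent of WT H3K79me2 peaks that overlapped a peak of the other WT list by at least 1 bp, by peak length and by quartile class of fold enrichment, with 1 line per replicate. The share rises from 36.6 and 47.3% for the shortest peaks to 100% for the longest.

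The 5 most enriched shared regions overlapped 8 protein-coding genes. The highest covered part of Hnrnpf, which encodes a nuclear RNA-binding protein of the hnRNP family, and part of 4933440N22Rik (chr6:117906810-117916728). Its enrichment was 20.6 in replicate 1 and 17.4 in replicate 2. The Ptbp1 region, over the polypyrimidine tract-binding splicing regulator and part of Plppr3 (chr10:79854897-79862318), reached 17.2 and 20.4. That over the serine- and arginine-rich splicing factor Srsf3 (chr17:29032737-29039387) reached 18.7 and 18.3. The region over Rbm14 and the overlapping Gm21992 (chr19:4794388-4811447) reached 18.5 and 17.7, where Rbm14 encodes an RNA-binding coactivator. The region over Eif4ebp1, which encodes a translation repressor that binds eIF4E, reached 18.0 and 17.6 (chr8:27260351-27275596). The order among the 5 is not resolved, since the replicates differed by more within the Hnrnpf and Ptbp1 regions than the means differed between regions.

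The 3 longest shared regions covered regulators of chromatin. They measured 92579 bp over Ankrd11, a chromatin regulator, 75193 bp over Cdyl, a chromodomain corepressor, and 69675 bp over Jarid2, a subunit of Polycomb repressive complex 2. The Ankrd11 region held 9 peaks of replicate 1 and 8 of replicate 2, so its length is that of a chain of peaks. Summed over a whole gene, Jarid2 held most marked sequence, with 158.1 and 149.3 kb of its 190.9 kb span in peaks. Ptprg, Med13l, Rere, Ankrd11, Tead1, Cmip, Rbfox2, Tns3 and Hdac4 followed. Of these 10 genes, Ptprg had the smallest share of its body in peaks (22.6 and 21.0% of 688.6 kb) and Ankrd11 the largest (90.5 and 89.0% of 159.0 kb). Full coverage was rare. Of 13962 protein-coding genes with a span of at least 10 kb, 38 had at least 90% of the body in peaks in each WT list. The largest shares belonged to LOC115488671 (100 and 98.1%), Eif4ebp1 (99.3 and 98.6%), Plekhf2 (98.8 and 97.9%), Ythdf1, a reader of N6-methyladenosine in RNA (99.2 and 97.1%), and the Mediator subunit Med26 (98.0 and 98.2%).

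Most of the KO peaks lay where WT also had a peak, and few recurred. In KO replicate 1, 10 of 16 peaks (62.5%, exact binomial 95% interval 35.4 to 84.8%) overlapped a peak of either WT list, and 8 overlapped both lists. In KO replicate 2 it was 7 of 12 (58.3%, 27.7 to 84.8%), and 5 overlapped both. These intervals cover counting error only. The KO peaks formed 26 regions, of which 2 held a peak of both KO lists. At Pisd-ps1, a transcribed pseudogene on chromosome 11, the KO peaks at 3127036 to 3127663 and 3127085 to 3127641 had an enrichment of 2.58 and 2.28. WT had peaks of 571 and 572 bp there, with an enrichment of 2.04 and 2.12, below both KO values. At Sos2, which encodes a Ras guanine nucleotide exchange factor, the KO peaks at 69654091 to 69654280 and 69654062 to 69654271 of chromosome 12 had an enrichment of 3.30 and 4.13. Neither WT list had a peak there. Each list's highest −log10 q was at 1 of these regions, with 16.0 at Pisd-ps1 in KO replicate 1 and 25.6 at Sos2 in KO replicate 2. Where KO and WT peaks met, the KO peak was shorter than the longest WT peak in 9 of 10 and 7 of 7 places. Its enrichment was above the mean WT enrichment at the place in 8 of 10 and 4 of 7. Only places with a called KO peak enter this count, so places of low KO enrichment are left out. It does not compare the signal of the genotypes. The largest drop was at Ilrun, where a 184 bp KO peak of enrichment 3.84 stood inside WT peaks of 19030 and 19044 bp with 10.2 and 11.4. The highest KO enrichment was 7.05 in replicate 1, at Hs2st1, a heparan sulfate sulfotransferase gene that also had WT peaks (5.39 and 4.98). In replicate 2 it was 7.63, at Farp1, with no WT peak at the place. Ilrun, Hs2st1 and Farp1 were picked after their values were seen. Seen from the WT side, a KO peak touched 13 of 35907 shared regions (0.0362%). None of the 28 KO H3K79me2 peaks overlapped a peak of either KO H3K79me3 list.

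A gene was called marked where its body overlapped a shared region by at least 1 bp. Of 21887 protein-coding genes, 7892 were marked, which is 36.1% and the background for the counts of lists below. A further 1294 met a peak of a WT list without a shared region, and 12701 met none. Peaks of either KO list overlapped 18 protein-coding genes, 14 of them marked, and only Sos2 had peaks of both KO lists. Genes took up nearly all WT peak sequence, with 97.5 and 97.6% of the bases inside annotated genes and 95.8 and 95.9% inside protein-coding ones. The marked share was 6.62% of 12727 lncRNA genes, 2.4% of 9944 pseudogenes and 14.6% of 1340 snoRNA genes, many of which sit in introns of other genes. None of the 394 immune receptor V segments was marked. On the autosomes 29.2 to 47.7% of protein-coding genes were marked, against 25.1% of 966 on the X and 1 of 256 on the Y. Among genes with tested RNA it was 39.4 to 56.3% on the autosomes, 38.3% of 622 on the X and 1 of 9 on the Y. X peaks had a median enrichment of 3.66 and 3.75, within the range over autosomes (3.63 to 3.80 and 3.64 to 3.89), whose median was 3.78 and 3.75.

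Within genes, the mark began just behind the start and faded toward the end. The profile covers 3651 marked protein-coding genes with a span of at least 20 kb and a strand in the RefSeq promoter table. At the start base itself, 1.97% of the genes had a peak in WT replicate 1 and 1.29% in replicate 2. At 0.5 kb downstream it was 30.5 and 27.0%, and at 1 kb 48.9 and 44.6%. The share was highest at 2 kb in replicate 1 (63.5%) and at 2.5 kb in replicate 2 (61.6%). It fell to 38.7 and 36.6% at 10 kb and to 21.5 and 20.2% at 20 kb, and at the gene end it was 1.34 and 0.959%. The first marked base lay a median of 877.5 and 986 bp behind the start. It lay within 2 kb in 78.0 and 75.8% of the genes and beyond 10 kb in 7.07 and 7.23%. Of the marked bases, 54.6 and 55.1% fell in the 25% of the body nearest the start, 27.3% in the next in both lists, then 12.9 and 12.6%, and 5.15 and 4.93% in the 25% nearest the end. Over the positions sampled, every 0.5 kb, KO peaks appeared in 1 gene at 4 kb in replicate 2 and 1 gene at 11 kb in replicate 1, each 0.0274% of the genes, and nowhere else.

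A shoulder stood upstream of the start, with 11.6 and 10.8% of genes marked 1.5 kb before it. It was higher in genes with a neighbouring start on the other strand. In 556 genes with an annotated start on the opposite strand within 1 kb upstream, 42.4 and 38.8% were marked at that point. In the other 3095 genes it was 6.01 and 5.82%. At 2 kb downstream the 2 classes stood at 72.7 and 66.4% and at 61.8 and 59.7%. The start base was covered in 0 and 0.36% of the first class and in 2.33 and 1.45% of the second.

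**Figure D3:**
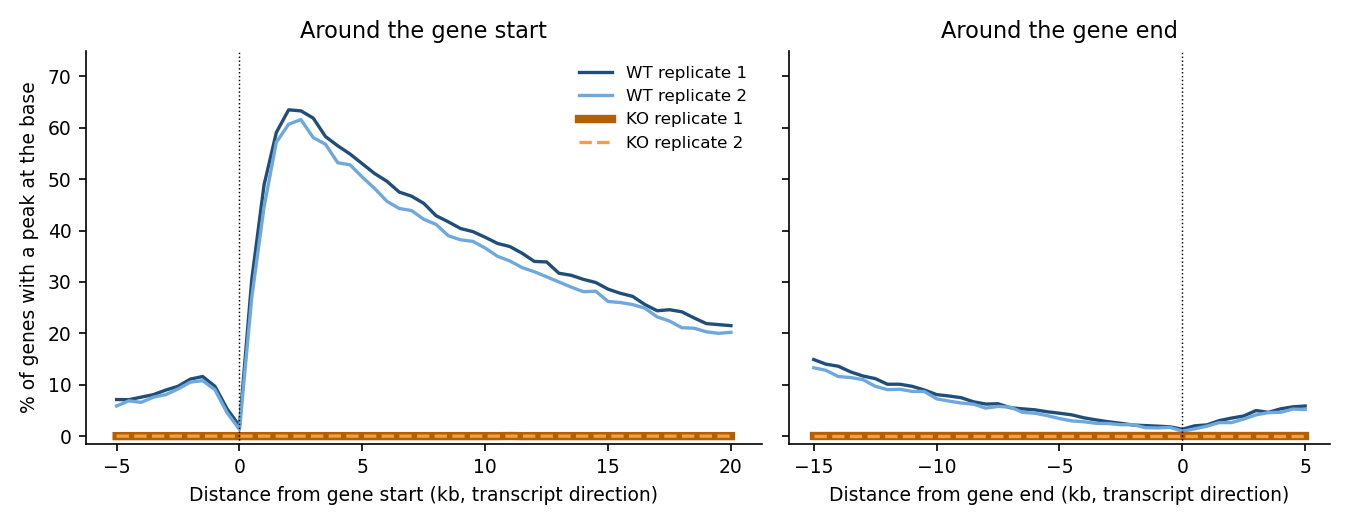
Percent of 3651 marked protein-coding genes of at least 20 kb with an H3K79me2 peak at each position, every 0.5 kb, around the gene start and the gene end, with 1 line per library. Both WT lines dip to 1.97 and 1.29% at the start and peak at 63.5 and 61.6% at 2 and 2.5 kb, and the KO lines do not exceed 0.0274%.

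Marked genes had CpG-rich promoters that the mark itself left free. Promoter sequence was given for 17492 protein-coding genes, 6401 of them marked. In 5883 of the marked genes (91.9%) no WT peak touched the 300-base promoter in either list, and in 234 (3.66%) peaks of both lists did. The promoters of marked genes held a median of 23 CpGs, against 6 in genes not marked and 13 in all. The share of genes marked was 5.61% with 0 to 4 CpGs, 46.0% with 10 to 19 and 65.2% with 30 or more. The letters of 4 short motifs were counted on both strands, namely TATAAA (the TATA box), CCAAT (the NF-Y box), GGGCGG (the SP/KLF GC box) and CCGGAAG (the ETS site). TATAAA occurred in 5.95% of marked promoters, against 17.6% of those not marked and 13.3% of all. GGGCGG occurred in 68.3% against 33.6%, with 46.3% of all, and holds a CpG itself. CCGGAAG occurred in 23.0% against 5.54%, with 11.9% of all, and also holds a CpG. CCAAT differed least, with 40.9% against 38.2% and 39.2% of all. The letters of these motifs can overlap one another at their ends. These are counts of letters, not of bound sites, and CpG-rich promoters are also those of genes with RNA in most tissues.

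The marked share followed the RNA level. RNA was given as the CPM, the count scaled to library size, which also grow with transcript length. Among tested protein-coding genes with a mean WT level up to 1 CPM, 29 of 2032 were marked (1.43%). The share was 9.47% from 1 to 10 CPM, 49.7% from 10 to 30, 85.4% from 30 to 100 and 96.1% (2235 of 2326) above 100. The median length in peaks of the marked genes was 1.21, 1.22, 2.03, 4.62 and 8.88 kb in the same order. Some low genes shared their marked sequence with a neighbour. In 6 of the 29 marked genes up to 1 CPM and 65 of the 500 from 1 to 10 CPM, all marked bases also lay in an overlapping gene above 10 CPM. Above 100 CPM it was 12 of 2235. Longer genes carried more marked sequence but a smaller share. Marked genes up to 5 kb held a median of 1.57 and 1.45 kb, or 57.2 and 51.9% of the body, and those over 100 kb held 13.0 and 11.4 kb, or 7.53 and 6.64%.

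The 5 genes with the highest RNA per kb of span and no WT peak were all replication-dependent histone genes. H4c4 had a WT level of 977 CPM per kb, H1f3 had 741, H2bc8 had 724, H1f1 had 718 and H2ac18 had 681. Their spans were 402 to 776 bp, so a gene could hold at most 1 or a few peaks of the median length. Their surroundings were empty too. In WT replicate 1 the nearest peak to the start was 68543 bp away for H2ac18, on chromosome 3, and 131275 to 339911 bp for the others, which lie on chromosome 13. In all, 63 genes above 100 CPM had no WT peak, with a median span of 0.776 kb, against 33.6 kb for the 2235 marked genes of that level. From 30 to 100 CPM, 290 genes had none, and there the spans were like those of the marked genes (34.3 and 27.1 kb).

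Lists of genes fell almost wholly on 1 side or the other, and they were not matched for RNA level. Of all tested protein-coding genes, 85.4% from 30 to 100 CPM and 96.1% above 100 CPM were marked. Up to 1 CPM it was 1.43%, and from 1 to 10 CPM 9.47%. The lists and their members were chosen with earlier results of these data known. All 27 splicing factors (SR proteins and hnRNPs) were marked, with a median of 62.9 and 58.4% of the body in peaks. The range ran from Hnrnpul1 (18.9% in both lists) to Srsf5 (90.3 and 84.0%). Of 22 elongation factors 21 were marked, from Ell2 (5.43 and 4.50%) to Cdk9, the kinase of P-TEFb (82.0 and 76.3%). The exception was Ctr9, a PAF1 complex subunit, with 2.11% in replicate 1 and none in replicate 2. Dot1l and the genes that act with it were marked in 6 of 7 cases. Mllt6 had 63.2 and 57.2% in peaks, Mllt10 37.0 and 34.2% and Dot1l 29.3 and 25.7%, while Mllt3 had none. All 8 genes of H2B ubiquitination and its removal were marked. The E3 ligase genes Rnf20 (5.09 and 5.57%) and Rnf40 (6.91 and 10.0%) were the least covered, and the deubiquitinase gene Usp7 (62.1 and 63.3%) the most. Of the MSL and NSL acetyltransferase complexes 11 of 12 genes were marked, all but Msl3, with Msl2 at 71.6 and 72.3%.

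Most pluripotency genes were well covered, and most listed genes of other fates had no peak. Of 20 pluripotency genes 19 were marked, with a median of 69.6 and 59.3% of the body in peaks. Pou5f1 stood at 71.2 and 80.9%, Sox2 at 75.0 and 66.1%, Nanog at 49.6 and 52.9%, and Klf2 at 99.8 and 100%. Tfcp2l1 (15.9 and 18.2%), Prdm14 (13.4 and 9.91%) and Nr0b1 (8.10 and 22.4%) had little. Sox2 and Klf2 span 2.467 and 2.593 kb, and the list was not matched for span. Among all marked genes the share was 57.2 and 51.9% up to 5 kb and 7.53 and 6.64% over 100 kb. Dppa3 had no peak. No member of the 2-cell-stage list (11 genes, the Zscan4 family and others), the Hox list (39), neural and muscle regulators (12) or differentiated tissue products (18) overlapped a WT peak. Of 16 early lineage regulators, Tead4 (9.13 and 8.57%) and Otx2 (36.1 and 39.7%) were marked. Markers checked the labelled cell type. All 8 mESC markers were marked and their summed RNA was 4501 to 4547 CPM in WT and 3984 and 4141 in KO. No feeder fibroblast or primitive endoderm marker was marked, and 1 of 7 trophoblast markers was. Primitive endoderm markers summed to 17.5 to 19.4 CPM in WT and 44.3 and 50.8 in KO, and feeder fibroblast markers to 154.1 to 197.0 in WT and 196.3 and 244.7 in KO. Their part in the RNA differences below was not tested.

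**Figure D4:**
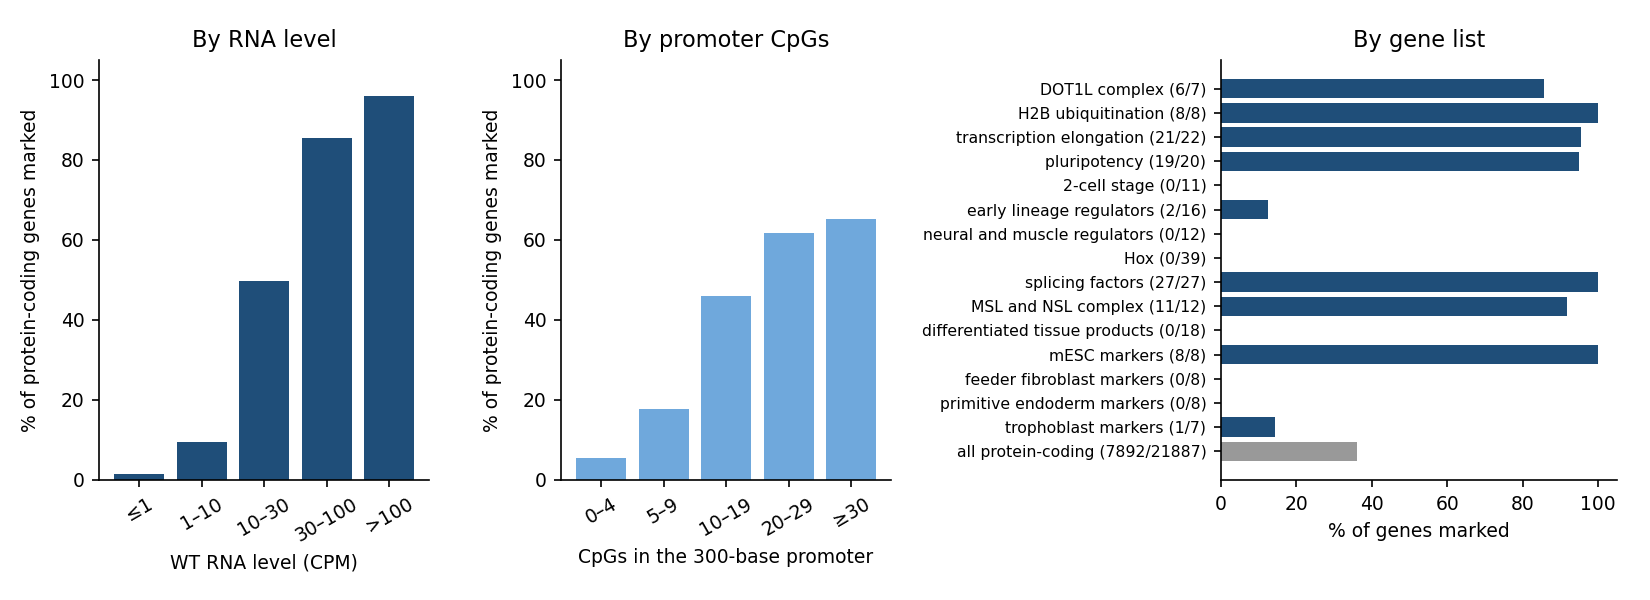
Percent of protein-coding genes marked by H3K79me2 in WT, by WT RNA level (CPM), by CpGs in the 300-base promoter and by gene list (marked and placed genes in brackets; grey, all protein-coding genes). Marking rises from 1.43 to 96.1% with RNA level and from 5.61 to 65.2% with CpGs. The lists, not matched for RNA level, lie near 0 or near 100%.

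The RNA comparison asked what the genes under the lost peaks did in the knockout. Of 19532 tested genes, 8572 (43.9%) were called by edgeR's quasi-likelihood test at an adjusted p under 0.05. Of all genes tested, 22.3% were higher in KO (4351) and 21.6% were lower (4221), while upper-quartile scaling gave 5503 higher and 3168 lower. Library totals were 26860527 to 33755064 estimated counts. Dot1l itself was measured at 104, 96.9 and 99.2 CPM in WT replicates 1 to 3 and at 81.4 and 71.5 in KO replicates 1 and 2. Its KO values were all below WT (log2 fold change −0.39 ± 0.06 SE, edgeR adjusted p = 0.000161). Dot1l RNA thus remained, and whether the counted part includes what the knockout removed is not stated in the labels.

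Marked genes changed often but little, and more of them were lower than higher, except with upper-quartile scaling. Of 7705 marked protein-coding genes tested, 17.7% were called higher and 34.3% lower, with a median log2 fold change of −0.06. Of 9175 not marked, 30.3% were higher and 12.4% lower, with a median of 0.14. Calls of at least 2-fold made up 2.39% of marked and 11.3% of unmarked genes. The direction of the marked median depended on the scaling. With upper-quartile scaling the medians were 0.01 and 0.21, and 26.4% of the marked genes were higher and 24.8% lower. The gap between the medians was −0.14 to −0.24 in all 12 fits, this one included. The share of marked genes called lower grew with the length in peaks, from 20.2% of 213 genes with under 0.5 kb to 43.6% of 1952 with over 10 kb. The share called higher went from 25.4 to 14.2%. Length in peaks also rose with RNA level, and the length classes were not compared within levels.

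RNA level moved with marking and with the change, so the classes were compared within levels. From 30 to 100 CPM the median was −0.06 both for 3212 marked and for 551 unmarked genes. Above 100 CPM it was −0.11 for 2235 marked and −0.23 for 91 unmarked genes. From 10 to 30 CPM it was 0.01 and 0.07, and from 1 to 10 CPM 0.09 and 0.15. Within each of these levels, the unmarked genes were called more often than the marked. The shares were 64.4 against 53.8% from 30 to 100 CPM and 56.1 against 45.1% from 10 to 30. They were 71.4 against 58.6% above 100 and 40.6 against 37.2% from 1 to 10. The share called lower rose with RNA level in marked and unmarked genes alike. It was 10.6% of marked and 9.41% of unmarked genes from 1 to 10 CPM, and 21.7 and 20.5% from 10 to 30. From 30 to 100 CPM it was 35.6 and 39.9%, and above 100 CPM 47.9 and 60.4%. These shares were not tested against each other.

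X-linked genes were mostly lower. Of 238 marked X genes, 232 were lower and 0 higher, with a median of −0.82. Of 384 X genes not marked, 182 were lower and 32 higher, with a median of −0.38. The labels used here give no karyotype for either genotype, and its part in these values was not tested. Without the X and Y genes the marked medians and shares were −0.05, 18.3% higher and 32.3% lower, and those not marked 0.16, 31.3 and 10.9%.

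**Figure D5:**
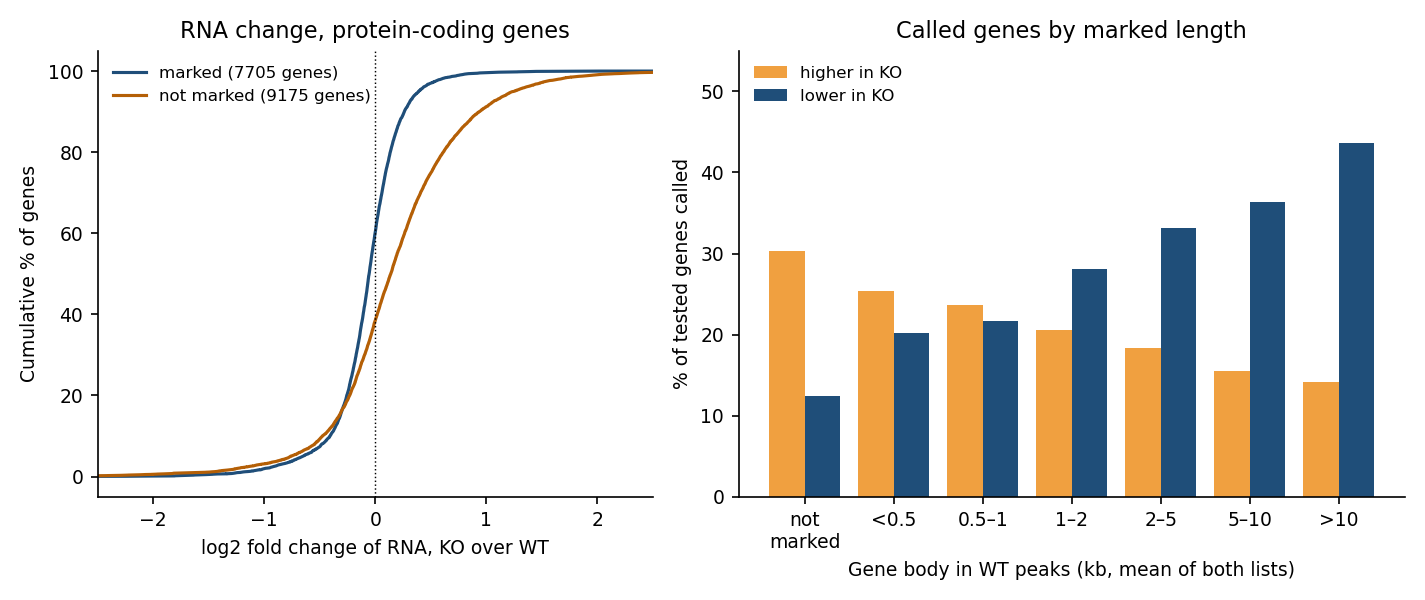
Cumulative percent of protein-coding genes by RNA log2 fold change (KO over WT) for marked and unmarked genes, and percent of tested genes called higher or lower by the length of the body in WT peaks. The marked curve is steeper, and calls lower in KO (TMM scaling) go from 20.2 to 43.6% with marked length. Marked length also rose with RNA level, which was not held fixed here.

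The 5 marked genes with the largest rises were Coil, Igsf21, Trim17, Rab6b and Ier3. Coil, which encodes the Cajal body protein coilin, went from 0.906, 0.953 and 0.975 CPM in WT to 17.5 in each KO library, an 18.4-fold rise. Its 17.68 kb body was 34.8 and 26.6% in WT peaks and overlapped no other annotated gene. Ier3, an immediate early response gene, went from 17.7, 16.8 and 17.1 to 62.4 and 50.8 CPM, a 3.29-fold rise. Igsf21, Trim17 and Rab6b rose 4.08-, 3.70- and 3.41-fold from WT levels of at most 3.66 CPM, and had 2.54 to 7.16% of the body in peaks. Trim17 overlaps the histone genes H2aw and H3f4. A call and groups that do not overlap were part of the rule that picked these 5. Each was also called in all 11 alternative fits.

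Of the 5 largest falls, 3 were X-linked neighbours. Gm19200, Gm14847 and 4930519F16Rik fell 9.67-, 9.59- and 8.40-fold, and Gm14847 lies inside 4930519F16Rik, so their reads may be shared. 4930519F16Rik was at 85.6, 86.2 and 91.2 CPM in WT and at 9.06 and 11.7 in KO. The autosomal falls were Dusp27, from 59.8, 59.1 and 58.5 to 6.60 and 10.2 CPM (7.01-fold), and the zinc finger gene Zfp981, from 336, 362 and 343 to 63.6 and 66.8 CPM (5.32-fold). Zfp981 overlaps Zfp993. Dusp27 had 3.60 and 4.28% of its body in peaks and Zfp981 28.0 and 22.9%.

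The genes named above for their coverage or enrichment had these RNA values. Of the 9 genes with most marked bases that were tested, Tns3 changed most, from 187, 155 and 194 to 97.4 and 101 CPM (1.80-fold lower, edgeR). Ankrd11 fell 1.25-fold, and Jarid2, with 828, 830 and 834 CPM in WT and 739 and 798 in KO, was lower by a log2 fold change of −0.11 ± 0.04 SE. Its call was lost in 7 of 11 alternative fits. Under the most enriched regions, Hnrnpf had 987, 999 and 965 CPM in WT and 896 and 956 in KO and was not called (edgeR adjusted p = 0.0809). Srsf3 (692, 704 and 693 against 569 and 651) and Ptbp1 (512, 511 and 516 against 441 and 464) were called 1.14- and 1.13-fold lower, and Rbm14 1.27-fold and Eif4ebp1 1.24-fold lower. In each of these the lowest WT value was above the highest KO value. How many of all tested genes separate in this way was not counted. Plppr3, also under these regions, went the other way without a call (edgeR adjusted p = 0.0596). It had 6.05, 5.53 and 6.89 CPM in WT and 8.32 and 6.96 in KO. Gm21992 was not called either (edgeR adjusted p = 0.0914).

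By list, called splicing, MSL and NSL and pluripotency genes were mostly lower, also with upper-quartile scaling. Called 2-cell and primitive endoderm genes were higher with both scalings. Of 27 splicing factors 18 fell and 1 rose (median log2 fold change −0.17), and of 12 MSL and NSL genes 9 fell and 0 rose (−0.20). Of those 12, the X-linked Hcfc1, Ogt and Msl3 all fell, and of the 9 others 6 fell (−0.16). Over all tested protein-coding genes the counts were 3786 lower and 4144 higher of 16880, with a median of 0.01, or 22.4% lower and 24.5% higher. Of marked genes above 100 CPM, 47.9% were lower and 10.7% higher, and the lists were not matched for RNA level. Every alternative fit kept 14 of the 19 splicing calls, 6 of the 9 MSL and NSL calls and 15 of the 17 pluripotency calls. Of 22 elongation factors 6 rose and 6 fell (median −0.04), and with upper-quartile scaling 9 rose and 3 fell (0.03). Of the 7 genes of the Dot1L list, which holds Dot1l itself, 5 fell, among them Dot1l, Aff4 and Mllt10. The unmarked Mllt3 rose from 22.8, 23.7 and 21.8 to 29.2 and 28.2 CPM. In H2B ubiquitination 4 of 8 fell and 0 rose, against 3 and 2 with upper-quartile scaling. The largest fall was that of the X-linked E2 enzyme gene Ube2a, from 81.5, 81.8 and 80.9 to 36.6 and 37.8 CPM. Of 20 pluripotency genes 14 fell and 3 rose (−0.26). Nanog fell 2.03-fold, from 499, 496 and 493 to 231 and 256 CPM, and Pou5f1 1.16-fold, from 693, 683 and 679 to 586 and 598. Sox2, at 405, 408 and 394 in WT and 380 and 394 in KO, was not called (edgeR adjusted p = 0.263). Tfcp2l1 rose 1.37-fold, from 392, 380 and 387 to 520 and 542 CPM. Of 11 unmarked 2-cell genes 7 rose and 0 fell (median 1.29). The risers were Zscan4a to Zscan4f and Duxf3, whose call was lost in 3 of 10 alternative fits. Zscan4f was at 12.3, 12.5 and 12.7 CPM in WT and 33.0 and 41.0 in KO. Zscan4 genes are near-identical copies, so their shares of the reads are uncertain. Of 7 primitive endoderm markers tested 6 rose and 0 fell (median 1.44). Of 15 early lineage regulators tested, a list that shares members with those markers, 8 rose and 3 fell (0.38). Of 35 Hox genes tested 8 rose (22.9%, near the 24.5% of all genes) and 2 fell, and 8 of these 10 calls were lost in at least 1 alternative fit.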

How the data were processed

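H3K79me2 was measured by ChIP-seq and gene expression by RNA-seq in mESCs. The deposited peak lists have the narrowPeak layout and were called by the authors for each library with MACS2 on mm10 after Bowtie2 alignment, per the submitters' processing notes; the control used is not given in the sources used here. Their enrichment is the authors' linear ratio (fold) over background, and their −log10 p and −log10 q are the authors' deposited values. The RNA table holds the authors' estimated counts per gene, not all whole numbers. The submitters' processing notes list mm10 and kallisto for all 5 libraries and also STAR and HTSeq for 4 of them, and which tool made the counts is not given in the sources used here. Each estimated count was rounded before fitting.

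Members and gene lists were chosen with earlier results of these data known. Overlap meant at least 1 bp, and interval functions were tested on simulated data. Genes, spans and promoters came from RefSeq GRCm38.p6, the same assembly as mm10, and 18556 of 19532 tested RNA genes were placed by symbol. Spans include introns. RNA was compared with edgeR 4.0.16 (filterByExpr, TMM, quasi-likelihood test, Benjamini-Hochberg adjustment) in R 4.3.3, and with DESeq2 1.42.0 as an alternative. Of 15 gene lists, members with the highest and lowest covered share were named, beside Pou5f1, Nanog, Sox2 and Dot1l. Named were peaks of both KO lists and the regions and genes, 5 or 10 each, at the extremes of enrichment, length, covered bases, covered share, RNA per kb without a peak, and RNA change (called, mean of at least 1 CPM, groups not overlapping). Listed genes outside these rules were picked after their values were seen. Some regions named by these rules are not reported here. Labels do not say that replicates were separate cultures, so p-values measure only the spread between these samples. Python 3.11.15, numpy 2.4.6, pandas 2.3.3, scipy 1.17.1 and matplotlib 3.10.9 were used.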

Additional observations from a re-analysis of the deposited data

How the results depend on the processing

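Restricting the lists to peaks with a −log10 q of at least 5 moved the mean per WT list to 30357.5 peaks, 54200 kb, a median length of 961 bp and a median enrichment of 4.67, and the mean per KO list to 7.5 peaks, 2.179 kb and a median enrichment of 4.857. Merging peaks within 1 kb gave 24635.5 peaks, 84760 kb and 1185 bp in WT. The share of WT peaks found in the other WT list, 73.5% on average, was 62.2% when at least 50% of the peak had to overlap. The share of KO peaks overlapping WT, 60.7% of all 28, was 46.4% with both WT lists required and 46.4% with WT peaks of −log10 q of at least 5. WT bases in genes were 95.9% for protein-coding genes only and 97.9% at −log10 q of at least 5. Upper-quartile scaling turned the median log2 fold change of marked genes to 0.01 and moved that of genes not marked to 0.21. All peaks lay on assembled chromosomes. Counts of marked genes and of RNA calls stayed within 1.5 times of the reported values under every alternative run. RNA calls ranged from 6940 to 8434 with 1 library left out and were 6765 with DESeq2. Leaving out a KO library leaves 1, which is then assumed to vary like WT. With the replicate block they were 8160. Deviations of same-numbered WT and KO RNA libraries from their group means correlated at 0.007 and −0.026. The KO deviations mirror each other around their mean, so these values cannot decide whether same-numbered libraries are paired. Of 133 called named or listed genes, 95 kept their call in every alternative fit that tested them, and 0 changed sign. The values without X and Y genes were added after seeing the data. All alternatives listed were run. Depth limits all peak counts, and no read depth is given for the ChIP libraries.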

Other observations

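WT H3K79me2 peaks that also held an H3K79me3 peak, the trimethylated form of the same residue, were longer and more enriched than the rest. Of the 66834 peaks of WT replicate 1, 6.69% overlapped a peak of WT H3K79me3 replicate 1 and 3.43% one of replicate 2. The H3K79me2 peaks with H3K79me3 replicate 1 had a median length of 2554 bp and a median enrichment of 6.41, against 474 bp and 3.64 for those without. In H3K79me2 replicate 2 the values were 2324 bp and 6.09 against 479 bp and 3.72. A longer peak meets another by position more easily, and the part of length was not tested. From the H3K79me3 side, 40.8% of 19800 and 56.6% of 7338 WT peaks overlapped H3K79me2 replicate 1. Of the H3K79me3 peaks called in KO, 5.06% of 178 and 3.66% of 328 did.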
